A study of Rattus norvegicus with 12 samples.

Results

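The CREB and ATF transcription factors are represented here by Creb1, Crem, Atf1, Atf2, Atf3, Atf4 and Atf5, and every probe set annotated to one of these 7 symbols was taken. That gave 15 of the 31099 probe sets of a rat expression array, and 7 of the 14218 genes that the annotation names. Creb1 had 4 probe sets, Crem had 6, and each of the 5 Atf genes had 1. Of these, 9 probe sets of 6 genes passed the filter on dim signals (a mean signal of at least 17.37 over all arrays), while 3 of Creb1, 2 of Crem and the only one of Atf3 did not.

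The samples came from the brains of male Wistar rats, whose age the labels do not give. All rats, controls included, had worked for intravenous cocaine at 0.3 mg/kg in each 40 µl injection, in 2 h sessions on 4 days, and were killed 2 h after the last session with pentobarbital. The 4 groups, with 3 arrays each, were nucleus accumbens with TsA, nucleus accumbens with vehicle, anterior cingulate cortex with TsA and anterior cingulate cortex with vehicle. Each array carried RNA of a separate pool of 2 rats, so that p-values measure the spread between pools, and no rats without cocaine were among the samples. The labels write only TsA, with no full name and no dose; the letters commonly stand for trichostatin A, which inhibits histone deacetylases. The labels do not say whether the accumbens and cortex pools came from the same rats, and the tests between structures treated them as unpaired.

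CREB and its close relatives are basic leucine zipper proteins that bind, as pairs, to the cAMP response element (CRE) in gene promoters. Kinases that respond to cAMP, calcium and growth factors phosphorylate them, which brings coactivators to the promoter, and in the nucleus accumbens CREB is known to be activated by cocaine. ATF4 belongs to another branch of the family: it is made when the translation factor eIF2 is phosphorylated, and it drives genes of amino acid supply. The arrays read RNA only, so neither protein nor phosphorylation of these factors was measured here.

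RefSeq promoter windows, 250 bases before to 50 bases after an annotated start, were at hand for 5 of the 7 genes (8 windows, rat build GRCr8), with no entry for Atf1 and Atf3. The windows were searched for the full CRE (TGACGTCA, the same on both strands) and for its core (TGACG, or CGTCA for the other strand). A core inside a full CRE was not counted again. The full CRE was present in 2 of the 8 windows, both of Crem, and in 612 of all 33469 windows (1.83%). A core outside a full CRE was present in 3 others, of Creb1, Crem and Atf4, and a core anywhere in 7097 of all windows (21.2%). The 250 bases before the start are shown for 4 windows that held one of these motifs, so that their number and place can be compared, with the motifs in capitals. They lie on the plus strand at chr17:58984547-58984796 (Crem start 2), chr17:58985240-58985489 (Crem start 3), chr9:73397259-73397508 (Creb1 start 1) and chr7:113684431-113684680 (Atf4 start 1).
Crem start 2: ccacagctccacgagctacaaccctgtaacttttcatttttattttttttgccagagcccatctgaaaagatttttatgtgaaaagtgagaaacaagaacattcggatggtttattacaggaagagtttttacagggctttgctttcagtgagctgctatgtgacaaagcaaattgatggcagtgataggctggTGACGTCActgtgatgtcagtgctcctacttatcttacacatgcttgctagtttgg
Crem start 3: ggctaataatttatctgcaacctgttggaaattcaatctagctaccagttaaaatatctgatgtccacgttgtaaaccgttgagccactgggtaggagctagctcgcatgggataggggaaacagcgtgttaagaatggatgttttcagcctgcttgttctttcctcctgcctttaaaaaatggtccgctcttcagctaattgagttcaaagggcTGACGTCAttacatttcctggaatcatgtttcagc
Creb1 start 1: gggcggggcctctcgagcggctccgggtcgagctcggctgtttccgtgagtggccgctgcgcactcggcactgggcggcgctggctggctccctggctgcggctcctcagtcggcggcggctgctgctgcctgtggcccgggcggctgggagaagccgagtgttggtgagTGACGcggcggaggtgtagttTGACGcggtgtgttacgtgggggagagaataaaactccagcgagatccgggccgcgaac
Atf4 start 1: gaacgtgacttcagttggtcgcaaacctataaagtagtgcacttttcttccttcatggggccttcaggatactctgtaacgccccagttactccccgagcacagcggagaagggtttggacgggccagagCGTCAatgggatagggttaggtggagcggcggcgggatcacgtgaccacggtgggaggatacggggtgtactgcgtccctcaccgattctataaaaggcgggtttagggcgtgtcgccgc
Starts 2 and 3 of Crem lie 52786 and 53479 bases inside the annotated gene, whose aliases include Icer, the inducible cAMP early repressor made from an internal promoter. Their full CREs began 56 bases before start 2, and 35 bases before and at base 40 after start 3. Crem start 1 held cores that began 241 and 6 bases before it. Creb1 start 1 had cores 80 and 59 bases before it and at base 9 after it, and Atf4 had 1 core, 120 bases before its start. None of these motifs was in the windows of Atf2, Atf5 and Creb1 start 2. A match describes letters only and does not show that a factor binds there.

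**Figure D1:**
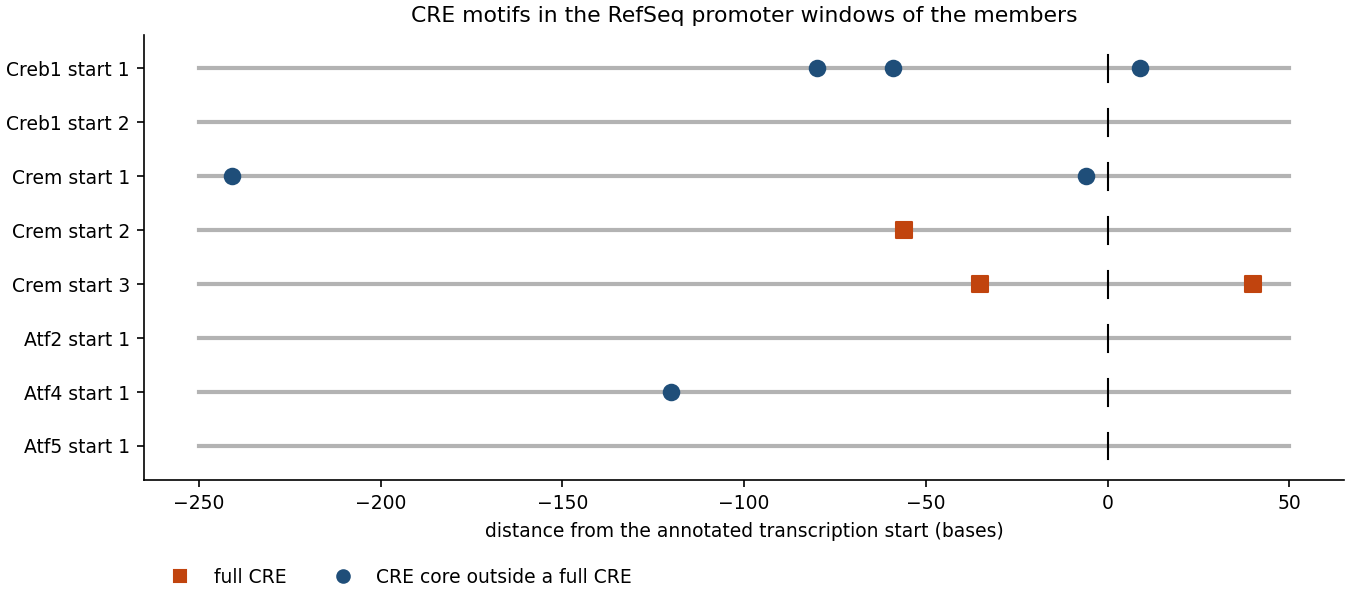
Places of full CREs (squares) and of cores outside a full CRE (circles) in the 8 RefSeq promoter windows of Creb1, Crem, Atf2, Atf4 and Atf5, as the distance in bases from the annotated start (vertical tick). Starts 2 and 3 of Crem held the full CREs, and 3 windows held neither motif.

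The signals are linear, in arbitrary units, and were deposited already scaled to the same mean on each array. The median signal of an array was 26.8 to 33.1, and arrays of the same group correlated at 0.948 to 0.993 across probe sets. The tissue labels matched their markers: all 11 striatal spiny neuron markers were higher in the accumbens, with summed signals of 11260 to 14044 there and 1303 to 1401 in the cortex, and all 10 cortical glutamatergic markers were lower, at 269 to 838 and 3847 to 4384. None was at 0, although Gpr6 averaged only 2.02 in the cortex. The 7 oligodendrocyte markers were all higher in the accumbens, with sums of 12457 to 15756 there against 5543 to 6573 in the cortex, and the 7 meningeal and fibroblast markers were all lower (1287 to 1828, against 1761 to 4109). Of 7 astrocyte markers 1 was higher and 2 lower, of 7 microglia markers 1 was lower, and none of 6 endothelial markers passed. Arrays were placed in 3 wash batches by fluidics station and AM or PM of the hybridisation date in the run records. The first held cortex vehicle 1 to 3 with cortex TsA 1, and the second cortex TsA 2 and 3 with accumbens vehicle 1 and 2. The third held accumbens vehicle 3 with accumbens TsA 1 to 3. Only the second batch held both structures, so that structure and wash batch overlap in large part. In these bulk samples, fewer cells of a type and less RNA per cell cannot be told apart.

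Between the structures, Atf1 and Creb1 were higher in the accumbens, and Atf4 and 1 probe set of Crem were lower there. The difference was largest for Atf4, at -0.88 ± 0.08 (SE) on the log2(signal + 16) scale used for all differences below. It was 0.51 ± 0.06 for Atf1, 0.51 ± 0.14 for Creb1 and -0.59 ± 0.15 for Crem. The test was limma, fitted to all 12 arrays and 18625 probe sets with Benjamini-Hochberg adjustment, and a probe set passed at an adjusted p under 0.05. By this rule 4 of the 9 member probe sets passed, 2 higher and 2 lower. Among all probe sets tested, 44.8% passed (24.4% higher and 20.4% lower), so the members' count was near the background. The calls over all probe sets were 4551 higher and 3798 lower, and 3156 higher and 5266 lower once arrays were centred on their medians, which moved the median of all probe sets to -0.06. Values of the structures did not overlap for 2 of the 9, against 27.1% of all probe sets. The median difference of the 9 was -0.11, and that of all probe sets 0.04.

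**Figure D2:**
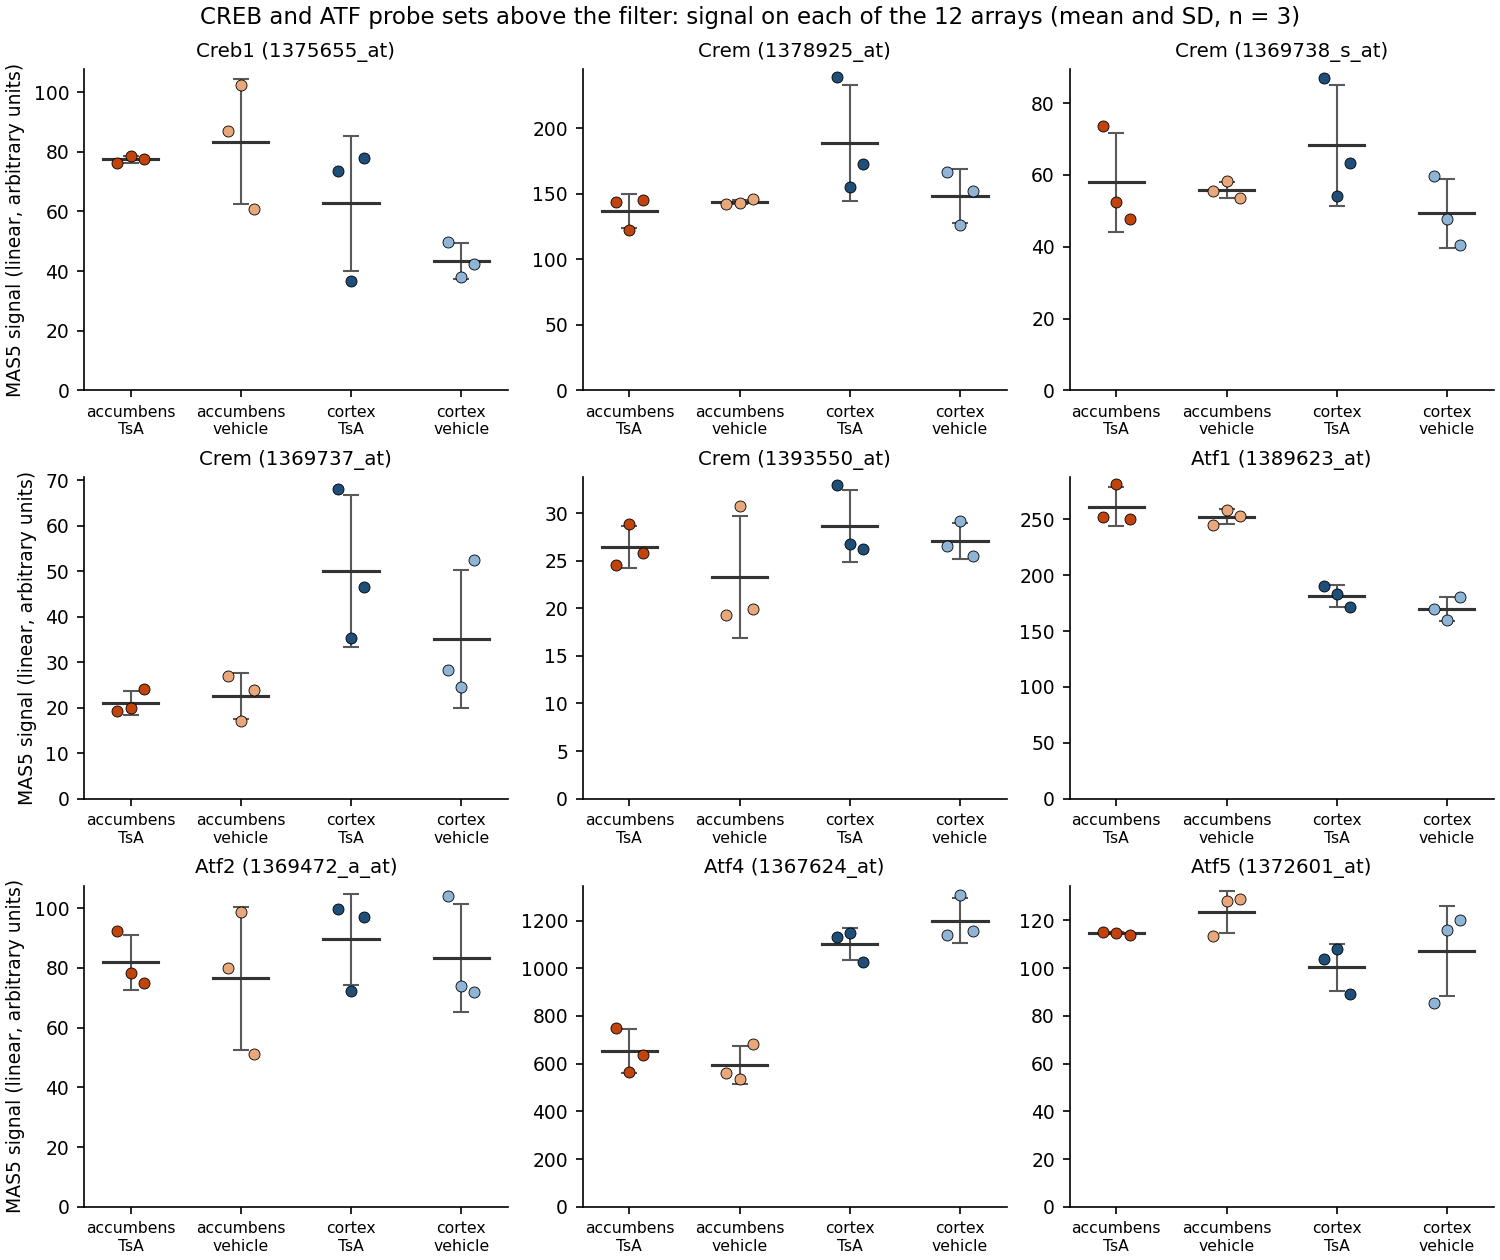
MAS5 signal (linear, arbitrary units, a separate scale in each panel) of the 9 member probe sets above the filter on each of the 12 arrays, for accumbens TsA, accumbens vehicle, cortex TsA and cortex vehicle, with bars at the mean and whiskers of 1 SD (n = 3). Atf1 and Atf4 part the structures with no overlap, while cortex TsA array 2 lies far below the other cortex TsA arrays for Creb1.

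Atf4, the activator induced by the integrated stress response, had signals of 751, 567 and 638 on the accumbens TsA arrays, 563, 535 and 684 on the accumbens vehicle arrays, 1132, 1147 and 1026 on the cortex TsA arrays and 1138, 1307 and 1155 on the cortex vehicle arrays. Every accumbens array was thus below every cortex array. It averaged 623 ± 83.3 in the accumbens and 1151 ± 89.8 in the cortex (SD, n = 6 each), a ratio of 0.541, with an adjusted p of 1.66e-06. Group means were 652 ± 92.7 in accumbens TsA, 594 ± 79.1 in accumbens vehicle, 1102 ± 65.7 in cortex TsA and 1200 ± 92.8 in cortex vehicle arrays (n = 3 each). Cortex vehicle was thus highest and accumbens vehicle lowest, but the treatments overlapped within each structure, and only the gap between the structures exceeded the spread. The gap was -0.75 ± 0.12 among TsA arrays (adjusted p = 0.000304) and -1.0 ± 0.12 among vehicle arrays (adjusted p = 2.46e-05). Within wash batch 2 alone, which sets 2 accumbens vehicle arrays against 2 cortex TsA arrays, it was -0.96 (adjusted p = 0.00116). The difference passed under all 24 alternative settings, from -1.04 to -0.83.

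Atf1, a close relative of CREB that binds the same element, had signals of 252, 281 and 250.4 on the accumbens TsA arrays, 245, 258 and 253 on the accumbens vehicle arrays, 190.1, 183 and 171 on the cortex TsA arrays and 169, 159.7 and 180.4 on the cortex vehicle arrays. The lowest accumbens array was above the highest cortex array. It averaged 257 ± 12.8 in the accumbens and 176 ± 10.9 in the cortex (SD, n = 6 each), a ratio of 1.46 and an adjusted p of 2.24e-05. The difference was 0.49 ± 0.09 among TsA arrays (adjusted p = 0.00109) and 0.53 ± 0.09 among vehicle arrays (adjusted p = 0.00051). By group mean the order was accumbens TsA (261 ± 17.4), accumbens vehicle (252 ± 6.60), cortex TsA (181 ± 9.48) and cortex vehicle (169.8 ± 10.4), with treatments that overlapped within each structure. In wash batch 2 alone the difference was 0.47 (adjusted p = 0.0395), and it passed under all 24 alternatives, at 0.41 to 0.57. With the wash batch as a fixed block the difference among TsA arrays no longer passed (0.51, adjusted p = 0.0718).

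Creb1 encodes CREB itself. Its brightest probe set (1375655_at) had signals of 76.2, 78.6 and 77.6 on the accumbens TsA arrays, 86.8, 102 and 60.8 on the accumbens vehicle arrays, 73.5, 36.6 and 77.9 on the cortex TsA arrays and 49.8, 37.9 and 42.3 on the cortex vehicle arrays. Cortex TsA arrays 1 and 3 lay among the accumbens arrays, and the structures overlapped. The means were 80.4 ± 13.7 in the accumbens and 53.01 ± 18.2 in the cortex (SD, n = 6 each), with an adjusted p of 0.011. The difference passed among vehicle arrays (0.72 ± 0.20, adjusted p = 0.0143), where the groups did not overlap. Among TsA arrays it was 0.29 ± 0.20, with a 95% interval of -0.15 to 0.73 and an adjusted p of 0.323. The difference between these values is the test of the TsA effect between the structures given below, and it did not pass. Within wash batch 2 alone the difference was 0.65 (adjusted p = 0.11), and with the wash batch as a fixed block it was 1.09 (adjusted p = 0.0183).

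The vehicle difference of Creb1 rested on few arrays. It no longer passed without cortex vehicle 2 or without accumbens vehicle 2, and over its alternatives it ranged from 0.59 to 1.25, with adjusted p of up to 0.0679. The other 3 probe sets of Creb1 were under the filter. The brightest of them (1369708_a_at) averaged 18.5 ± 3.07 in the accumbens and 15.1 ± 4.03 in the cortex. Fitted with no filter its difference was 0.15 (adjusted p = 0.301), so it shared the sign of the brightest probe set but did not pass. The remaining pair (1377913_at and 1371291_at) had signals of 4.24 or lower on every array, with differences of -0.01 and -0.02.

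Crem encodes activators and repressors of the same element through different promoters and splicing, and its probe sets differed from each other. Only 1369737_at passed between the structures. It had signals of 19.3, 19.9 and 24.1 on the accumbens TsA arrays, 26.9, 17.0 and 23.9 on the accumbens vehicle arrays, 68.1, 35.3 and 46.6 on the cortex TsA arrays and 28.2, 24.5 and 52.4 on the cortex vehicle arrays. All accumbens TsA arrays were below all cortex TsA arrays, whereas accumbens vehicle 1 lay above cortex vehicle 2. It averaged 21.8 ± 3.72 in the accumbens and 42.5 ± 16.4 in the cortex (SD, n = 6 each), with an adjusted p of 0.00492. The difference was -0.80 ± 0.21 among TsA arrays (adjusted p = 0.00989), and it was -0.37 ± 0.21 among vehicle arrays, with an interval of -0.82 to 0.07, and 0.17 there with the wash batch as a fixed block. With the wash batch as a fixed block the average difference was -0.26 (adjusted p = 0.556), and in wash batch 2 alone it was -0.59 (adjusted p = 0.058), so the call was lost in both. The difference among TsA arrays was also lost without cortex TsA 1.

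The brightest probe set of Crem (1378925_at) had signals of 144, 122 and 145 on the accumbens TsA arrays, 142, 143 and 146 on the accumbens vehicle arrays, 239, 155 and 173 on the cortex TsA arrays and 167, 126 and 152 on the cortex vehicle arrays. The accumbens TsA arrays were all below the cortex TsA arrays, and the vehicle groups overlapped. Its average difference was -0.22 (interval -0.44 to 0.00, adjusted p = 0.101), with -0.40 among TsA arrays (adjusted p = 0.0529). The average turned to 0.10 with the wash batch as a fixed block. That block draws on cortex TsA 1, at 239, as the only cortex TsA array of wash batch 1. The average passed with arrays centred on their medians (-0.32, adjusted p = 0.0188), with array weights (-0.27, adjusted p = 0.0106) and without cortex TsA 2. The difference among TsA arrays passed under 8 of 24 alternatives, quantile normalization, median centring and array weights among them, and over all 24 it ran from -0.52 to -0.23. Probe set 1369738_s_at averaged 56.9 ± 8.97 in the accumbens and 58.8 ± 16.1 in the cortex (-0.02, interval -0.27 to 0.23, and 0.33 with the wash batch as a fixed block). Probe set 1393550_at averaged 24.9 ± 4.63 in the accumbens and 27.9 ± 2.79 in the cortex (-0.11, interval -0.29 to 0.08, and 0.15 under the same block). The 2 probe sets under the filter averaged 13.8 ± 2.31 and 5.78 ± 3.34 in the accumbens, against 14.9 ± 1.15 and 9.08 ± 3.22 in the cortex. Which Crem transcripts each probe set reads was not analysed here.

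Atf2, a factor activated by stress kinases, had signals of 92.3, 78.2 and 74.9 on the accumbens TsA arrays, 79.9, 98.6 and 51.0 on the accumbens vehicle arrays, 99.8, 72.1 and 96.9 on the cortex TsA arrays and 104, 74.02 and 71.96 on the cortex vehicle arrays. All 4 groups overlapped, and the difference between structures was -0.11 (interval -0.40 to 0.18, adjusted p = 0.518). It turned to 0.46 with the wash batch as a fixed block (adjusted p = 0.185) and was 0.07 within wash batch 2 alone. Atf5, a relative of ATF4, had signals of 115, 115 and 114 on the accumbens TsA arrays, 113, 128 and 129 on the accumbens vehicle arrays, 104, 108 and 89.3 on the cortex TsA arrays and 85.4, 116 and 120.3 on the cortex vehicle arrays. The accumbens TsA arrays lay within 2 units of each other and above all cortex TsA arrays, but the difference over all arrays was 0.18 (interval -0.01 to 0.36, adjusted p = 0.105). Atf3, a stress-induced factor that represses many of its targets, was under the filter, with signals of 1.13 to 7.97 in the accumbens and 3.52 to 8.15 in the cortex. Fitted with no filter, the 6 dim probe sets of the family differed by -0.21 to 0.15 between the structures, and none passed.

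Within treatments, 3 of the 9 member probe sets passed between structures among TsA arrays (Atf1, Atf4 and Crem 1369737_at), against 28.3% of all probe sets. Groups of TsA arrays did not overlap for 5 of the 9, against 49.2% of all. Among vehicle arrays 3 of the 9 passed (Creb1, Atf1 and Atf4), against 34.5%, and 3 did not overlap, against 40.5%. The striatal, cortical, oligodendrocyte and meningeal markers given above move with the same comparison, and their part in the members' differences was not tested.

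**Figure D3:**
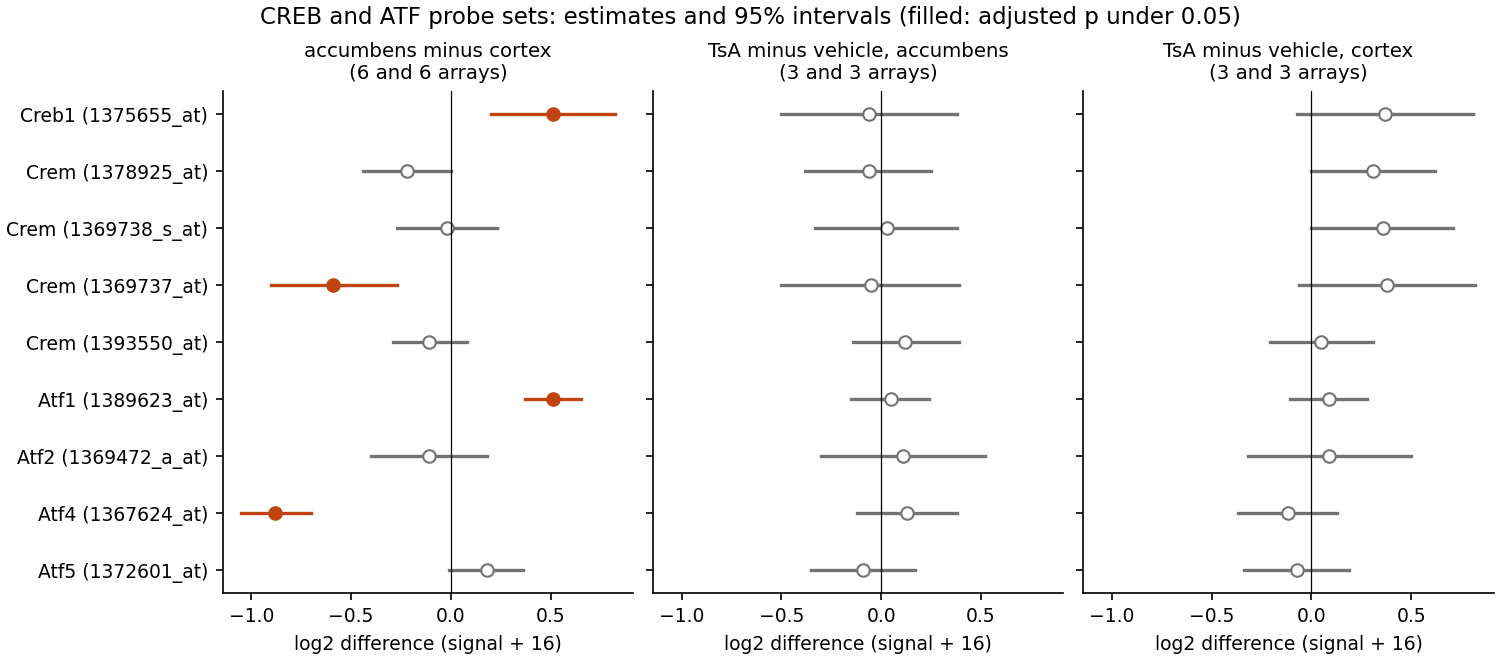
Log2 differences of signal + 16 for the 9 member probe sets, with 95% intervals, for accumbens minus cortex (6 and 6 arrays), TsA minus vehicle in the accumbens and TsA minus vehicle in the cortex (3 and 3 arrays each), filled where the adjusted p was under 0.05. In the left panel 4 probe sets passed, and in the other panels all intervals but that of Crem 1369738_s_at in the cortex reach across 0.

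TsA was then compared with vehicle within each structure. In the accumbens the member probe sets differed by -0.09 to 0.13, and none of the 9 passed (background 0% of 18625, with 408, or 2.19%, at an unadjusted p under 0.05 by limma). The smallest unadjusted p among these 9 was 0.289 by limma. Of the 6 dim probe sets, fitted with no filter, Creb1 1371291_at had the smallest, 0.00728, with a difference of 0.21 and an adjusted p of 1, at signals of 3.88 or lower on every array. The interval was narrowest for Atf1 (0.05, -0.15 to 0.24) and wider for Creb1 (-0.06, -0.50 to 0.38) and Crem 1369737_at (-0.05, -0.50 to 0.39). Atf4 had a difference of 0.13 (-0.12 to 0.38). Directions turned with the wash batch as a fixed block, where Atf4 differed by -0.08 and Creb1 by 0.28. Atf2 moved to 0.54 from 0.11, with no member past the threshold. Under this block the comparison rests on wash batch 3, where accumbens vehicle 3 is the only vehicle array. That array lay 0.35 below its group mean for Creb1, 0.43 below for Atf2 and 0.21 above for Atf4. TsA and vehicle arrays overlapped for all 9, against 5.48% of probe sets that did not overlap. Spreads of the members differed in both directions. Creb1 averaged 77.5 ± 1.21 with TsA and 83.3 ± 20.97 with vehicle. Atf5 averaged 115 ± 0.556 with TsA and 123.5 ± 8.76 with vehicle. The SD was also smaller with TsA for Atf2 (9.28 against 23.97), Crem 1369737_at (2.62 against 5.1) and Crem 1393550_at (2.19 against 6.43). It was larger with TsA for Crem 1378925_at (13.03 against 1.73) and Crem 1369738_s_at (13.87 against 2.28). The same held for Atf1 (17.4 against 6.6) and Atf4 (92.7 against 79.1). Spreads of 3 arrays were not tested. All 10 cortical glutamatergic markers lay above 0 in this comparison, with a median of 0.23 (all probe sets 0.01), none of them past the threshold. The share of all probe sets above 0 was not counted. Sums of these markers were 475 to 838 with TsA. With vehicle they were 269 on accumbens vehicle 2, and 605 and 811 on accumbens vehicle 1 and 3. The part of these markers in the members' values was not tested.

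In the cortex the means of Creb1 and of 3 Crem probe sets were higher with TsA, but no member passed (background 0%, with 851 probe sets, 4.57%, at an unadjusted p under 0.05 by limma, and a smallest adjusted p of 0.751 over all probe sets). Of the members, 1 of 9 was under that unadjusted p, Crem 1369738_s_at, at 0.0479 by limma. Creb1 averaged 62.7 ± 22.7 with TsA and 43.3 ± 5.98 with vehicle (SD, n = 3 each), a difference of 0.37 with an interval of -0.07 to 0.81. Crem 1378925_at averaged 189 ± 44.3 with TsA and 148 ± 20.7 with vehicle (0.31, adjusted p = 0.751), and Crem 1369738_s_at averaged 68.2 ± 17.0 with TsA and 49.3 ± 9.61 with vehicle (0.36, adjusted p = 0.751). Crem 1369737_at averaged 50 ± 16.7 with TsA and 35.02 ± 15.2 with vehicle (0.38, interval -0.06 to 0.82). In each of these 4 the TsA and vehicle arrays overlapped, as they did for all 9, against 12.4% of probe sets that did not.

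Single arrays moved these cortex values. Cortex TsA 1 was the highest of the 6 cortex arrays in all 3 of those Crem probe sets, and without it they differed by 0.14 (1378925_at), 0.20 (1369738_s_at) and 0.19 (1369737_at). Cortex TsA 2 was the lowest TsA array in Creb1 and in the same Crem probe sets, and its summed meningeal and fibroblast signal was 1761, against 3698 and 3919 on the other cortex TsA arrays and 3676 to 4109 on the cortex vehicle arrays. Without it Creb1 differed by 0.63 (adjusted p = 0.622), and the part of those markers was not tested. Within wash batch 1, where cortex TsA 1 alone stood beside the 3 vehicle arrays, Creb1 differed by 0.60 and the Crem probe sets by 0.64, 0.67 and 0.76, with adjusted p of 0.934. With array weights, which let arrays of larger spread count less, 4519 probe sets passed in the cortex, among them Creb1 (0.52, adjusted p = 0.0125), Crem 1378925_at (0.33, adjusted p = 0.0296), Crem 1369738_s_at (0.59, adjusted p = 0.00777) and Atf5 (-0.23, adjusted p = 0.0423). Crem 1369737_at went the other way under these weights, down to 0.07, and did not pass.

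The other members in the cortex differed by -0.12 to 0.09. Atf4 averaged 1102 ± 65.7 with TsA and 1200 ± 92.8 with vehicle (-0.12, interval -0.37 to 0.13), and Atf1 averaged 181 ± 9.48 with TsA and 169.8 ± 10.4 with vehicle (0.09, interval -0.11 to 0.28). The TsA effect in the accumbens minus that in the cortex was tested as an interaction, and no member passed (background 0%, 662 probe sets, 3.55%, at an unadjusted p under 0.05 by limma). It was -0.43 for Creb1 (interval -1.05 to 0.19), -0.37 for Crem 1378925_at (-0.81 to 0.07) and 0.25 for Atf4 (-0.11 to 0.61), with adjusted p of 0.84 for each. Averaged over the structures, the TsA effects of the 9 ran from -0.08 to 0.19, with adjusted p of 1 for each (background 0%) and 515 of all probe sets, 2.77%, at an unadjusted p under 0.05.

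Deviations of arrays from their group means were shared by many probe sets. The first principal component of these deviations over 18625 probe sets held 50.3% of the spread within groups, and its sign was set so that Creb1 loads positively. Accumbens vehicle 3 and cortex vehicle 2 had the lowest scores, at -29.9 and -22.4, and accumbens vehicle 1 and cortex vehicle 1 the highest, at 29.4 and 24.2. On accumbens vehicle 3, Creb1 lay 0.35 below its group mean, Atf2 lay 0.43 below and Atf4 lay 0.21 above. On cortex TsA 2, with a score of -13.7, Creb1 was 0.53 and Atf2 0.25 below, and Atf4 was 0.06 above. On cortex vehicle 1 Atf2 was 0.29 above and Atf4 0.07 below. Other arrays followed the score less closely. On accumbens vehicle 1, with the highest score, Creb1 was 0.07 and Atf2 0.09 above. On accumbens vehicle 2, with a score of 0.42, Creb1 was 0.28 and Atf2 0.34 above, and Atf4 was 0.14 below. On accumbens TsA 1, with a score of -0.93, Atf4 was 0.21 above. Atf1 stayed within 0.10 of its group mean on all 12 arrays. What the component stands for was not tested.

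**Figure D4:**
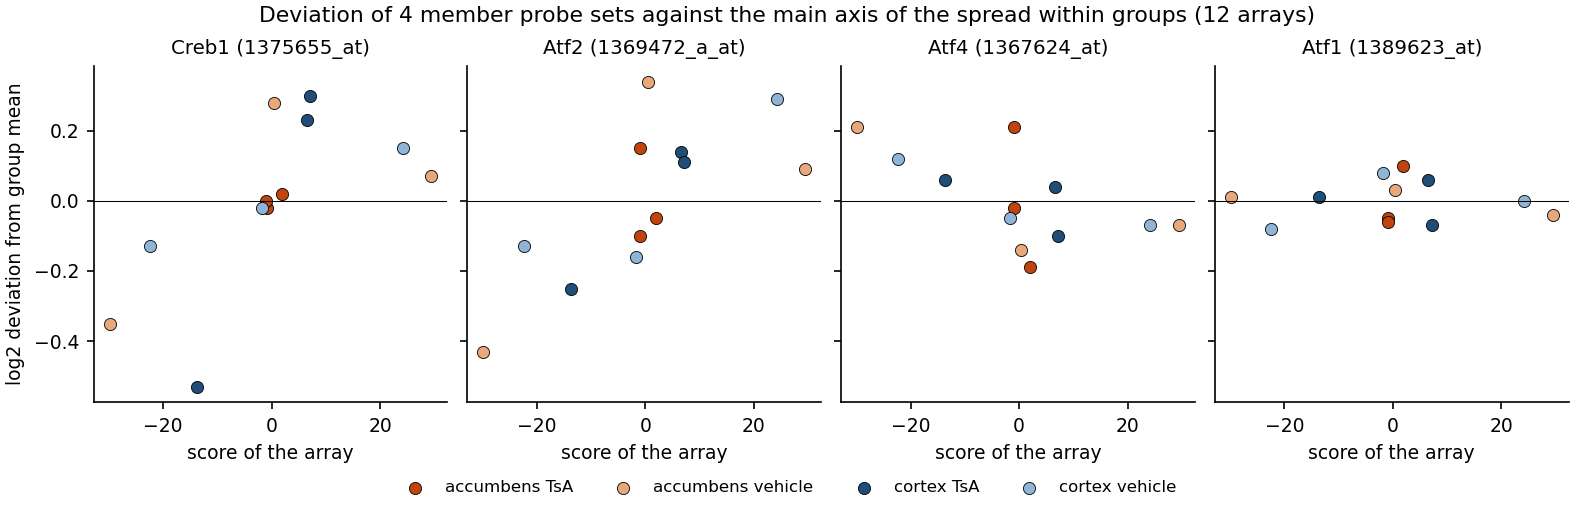
Log2 deviation of Creb1, Atf2, Atf4 and Atf1 from their group mean (vertical axis) against the score of each of the 12 arrays on the first component of the spread within groups (horizontal axis, no unit). Creb1 is 0.53 and 0.35 below its mean on cortex TsA 2 and accumbens vehicle 3, while Atf1 stays within 0.10 of its mean on every array.

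Genes that act with the family were described in 7 lists, with the brightest probe set for each gene and counts of those that passed between the structures among the genes above the filter. The background for these counts is again 44.8% of all probe sets tested, not of the brightest probe set per gene. It is 22.5% with the wash batch as a fixed block, 43.9% with quantile normalization and 45.2% with median centring. Among other basic leucine zipper factors, 3 of 15 were higher in the accumbens and 2 lower (median -0.05, all probe sets 0.04). The higher ones were Creb5 (0.71 ± 0.10), Crebrf (0.52 ± 0.17) and Dbp (0.31 ± 0.08), a clock-controlled factor. Ddit3, which encodes the stress factor CHOP, was lower (-0.39 ± 0.10), as was Crebzf (-0.22 ± 0.08). The split depended on the scaling and the batch: 2 were higher and 6 lower with arrays centred on their medians, 3 and 5 with quantile normalization, and 2 and 0 with the wash batch as a fixed block.

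CREB coactivators and their regulators were higher in 7 of 13 cases and lower in 1, with a median of 0.33. Kat2b, a histone acetyltransferase, had the largest difference (1.01 ± 0.08, with 255 ± 30.7 in the accumbens and 119 ± 14.03 in the cortex). Crtc1 (0.54 ± 0.11) and Crtc3 (0.44 ± 0.09), coactivators that enter the nucleus when dephosphorylated, were higher, as was Taf4 (0.40 ± 0.07), a subunit of the general factor TFIID that CREB contacts. Cited2 was lower (-0.22 ± 0.09). With the wash batch as a fixed block 1 of 13 passed and the median was 0.14, while 22.5% of all probe sets still passed.

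Kinases and phosphatases that act on CREB went both ways, 11 higher and 6 lower of 30, with a median of 0.03. With arrays centred on their medians, 8 were higher and 11 lower, with a median of -0.07. Ppp1r1b encodes DARPP-32, an inhibitor of protein phosphatase 1 in spiny neurons and also one of the striatal markers, and it was higher by 3.06 ± 0.09. The CREB kinases Rps6ka5 (1.46 ± 0.12) and Rps6ka4 (1.16 ± 0.10) and the protein kinase A subunit Prkar2b (0.77 ± 0.09) were higher too. Another protein kinase A subunit, Prkar1b, was lower (-0.66 ± 0.06). So were the calcium and calmodulin kinase genes Camk2g (-1.18 ± 0.09), Camk2d (-0.85 ± 0.08) and Camkk1 (-0.94 ± 0.08).

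Known CREB target genes were lower in 17 of 32 cases and higher in 7 (median -0.33). Those with the smallest p among the higher were neuropeptide precursors: Cartpt (4.60 ± 0.11), Penk (3.03 ± 0.08), Tac1 (3.28 ± 0.12) and Pdyn (3.50 ± 0.14), the last 3 of which are also on the list of striatal markers. Among the lower they were the peptide genes Vip (-3.03 ± 0.12) and Crh (-1.45 ± 0.13), the growth factor Bdnf (-2.20 ± 0.12) and the immediate-early gene Egr2 (-1.38 ± 0.10). Bdnf averaged 14.8 ± 4.50 in the accumbens and 125 ± 19.5 in the cortex. With the wash batch as a fixed block 7 were higher and 12 lower.

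On the ATF4 side, 2 of 16 genes for eIF2, its exchange factor and its kinases and phosphatases were higher and none lower (median 0.04): Ppp1r15b, which helps remove the phosphate from eIF2 (0.28 ± 0.07), and the eIF2 kinase Eif2ak4 (0.21 ± 0.07). With arrays centred on their medians, 2 were lower and none higher, and with the wash batch as a fixed block none passed either way. ATF4 target genes were lower in 13 of 28 cases and higher in 4 (median -0.18). Among TsA arrays 3 were higher and 3 lower, where 28.3% of all probe sets passed. Among vehicle arrays 2 were higher and 12 lower, where 34.5% of all passed. The difference between these counts was not tested. The lower ones included the tRNA synthetase genes Nars1 (-0.45 ± 0.06) and Aars1 (-0.45 ± 0.09) and the stress genes Nupr1 (-0.66 ± 0.10) and Sesn2 (-0.46 ± 0.09). The higher ones were Psat1 (0.49 ± 0.07) and Phgdh (0.46 ± 0.12), enzymes of serine synthesis, with Vldlr (0.52 ± 0.10) and Ddit4 (0.34 ± 0.11). With the wash batch as a fixed block 2 were higher and 4 lower. Of the stress kinases that act on ATF2, 3 of 10 were lower, Mapk9 (-0.63 ± 0.09), Mapk11 (-0.74 ± 0.11) and Mapk8 (-0.58 ± 0.12), and none was higher. With the wash batch as a fixed block 1 of the 10 was lower.

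**Figure D5:**
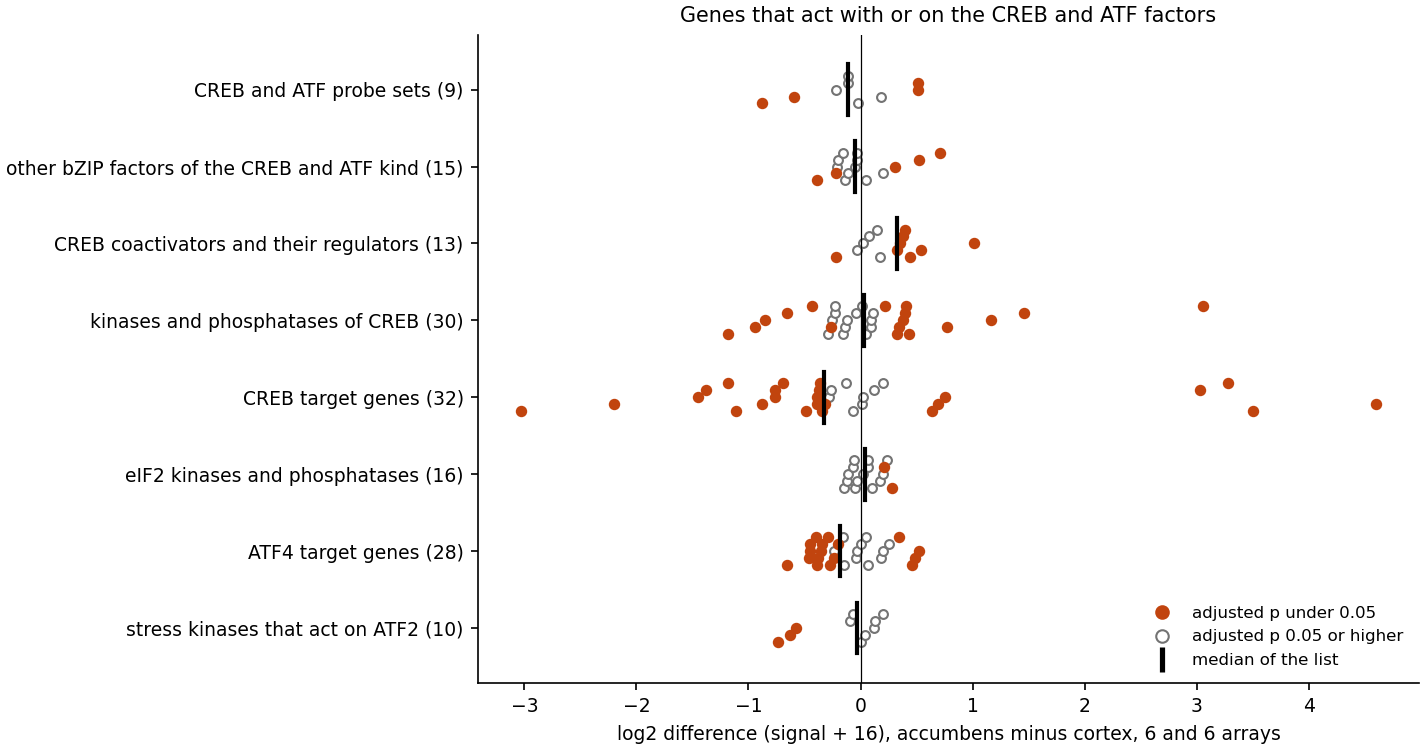
Log2 differences of signal + 16, accumbens minus cortex (6 and 6 arrays), for the member probe sets and for the measured genes of 7 lists, 1 point per gene, filled where the adjusted p was under 0.05, with a bar at each list's median. CREB target genes spread widest, from -3.03 (Vip) to 4.60 (Cartpt), and coactivators have the highest median, 0.33.

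No gene of these 7 lists passed for TsA in either structure. In the cortex, Camk2a, a kinase gene of excitatory neurons, averaged 201 ± 57.6 with TsA and 311 ± 98.2 with vehicle (-0.57, adjusted p = 0.751). The stress kinase gene Mapk8 averaged 341 ± 27.5 with TsA and 259 ± 66.7 with vehicle (0.40, adjusted p = 0.751), and both overlapped between treatments. In the cortex 23 of the 28 ATF4 target genes lay below 0 (median -0.11, all probe sets -0.02), and in the accumbens 19 lay above 0 (median 0.07, all probe sets 0.01). The share of all probe sets on each side of 0 was not counted. Array deviations were shared by many probe sets, so these 28 genes are not separate observations. The smallest p among them in the cortex was that of Phgdh, at 309 ± 57.4 with TsA and 381 ± 13.2 with vehicle (-0.30, adjusted p = 0.751), and in the accumbens that of the tRNA synthetase gene Gars1, at 493.5 ± 8.99 with TsA and 428 ± 30.7 with vehicle (0.20, adjusted p = 1). For CREB target genes the medians were 0.07 in the accumbens and -0.03 in the cortex. Vip had the smallest p in the accumbens (-0.27, 37.3 ± 7.10 with TsA and 49.4 ± 16.1 with vehicle). In the cortex it was Gadd45b, at 81.9 ± 6.08 with TsA and 98.6 ± 16.95 with vehicle (-0.22). Of the coactivators, Crebbp, which encodes CBP, averaged 195 ± 5.56 with TsA and 232 ± 25.5 with vehicle in the accumbens (-0.22, adjusted p = 1), without overlap. Ep300, the gene of its paralogue p300, averaged 259.6 ± 25.6 with TsA and 312 ± 17.2 with vehicle in the cortex (-0.25, adjusted p = 0.751), also without overlap. Of all probe sets, 5.48% did not overlap in the accumbens and 12.4% in the cortex. Both genes were named by the rule of smallest p in their list.

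The genes whose pattern over the 12 arrays was most like a member's were found by the root-mean-square difference of centred log2 values, over 10376 genes, for the 3 member probe sets whose group means spanned most. For Atf4, with a span of 1.00, they were Mmp17 (0.0802), Cfap90 (0.0807) and Otud1 (0.0842), against a median of 0.494 over genes. Mmp17, a membrane-bound metalloproteinase gene, averaged 425 ± 39.6 in accumbens TsA, 396 ± 69.9 in accumbens vehicle, 698 ± 43.4 in cortex TsA and 727 ± 84.2 in cortex vehicle arrays. Crem 1369737_at, with a span of 0.80, had no match as near: Acss3 (0.215), Tnfaip8 (0.217) and Msrb3 (0.219), against a median of 0.454. For Creb1, with a span of 0.72, they were Slc2a13 (0.122), Slc35a1 (0.146) and Depp1 (0.148), against 0.42. Slc2a13, a myo-inositol transporter gene, averaged 813 ± 55.4 in accumbens TsA, 822 ± 160.2 in accumbens vehicle, 672 ± 99.4 in cortex TsA and 537 ± 75.5 in cortex vehicle arrays.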

How the data were processed

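RNA of 12 pools of 2 rats was hybridised to Affymetrix Rat Genome 230 2.0 arrays, 3 in each of 4 groups taken from the labels. The intensity values used were deposited by the authors as 1 linear signal for each probe set, and the submitters' processing notes name GCOS 1.4 and MAS5. The mean trimmed by 2% at each end was 100.03 on every array, so no further scaling was applied, and the number of arrays limits the precision. Members were found by symbol in GEO's platform annotation, and 57 control probe sets were left out.

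The lowest 40% of probe sets by mean signal were removed, which left 18625. Values were taken as log2(signal + 16), which understates changes of dim probe sets, and fitted in limma 3.58.1 (R 4.3.3) with a mean for each of 4 groups and eBayes with a trend. All p-values are two-sided and were adjusted by Benjamini-Hochberg, with a threshold of 0.05. The fit was tested on simulated data with independent noise for each probe set. These had no shared array deviations and no wash batches, so they cannot show how either affects the calls. Wash batches were inferred from the fluidics station and AM or PM of the hybridisation date in the run records. All member probe sets are named. A list names at most 4 genes in each direction with the smallest p among those that passed, or else at most 2 as values. The members and lists were chosen with earlier results of these data known. Promoter sequences are those of RefSeq (GRCr8). Alternatives covered the added constant, filter, scaling, spread, replicate and wash batch blocks, and leaving out each array. Tables and figures used Python 3.11.15, pandas 2.3.3 and matplotlib 3.10.9.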

Additional observations from a re-analysis of the deposited data

How the results depend on the processing

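For TsA, leaving out each array in turn gave 0 calls in every comparison, over all probe sets and over members. With array weights 4519 probe sets passed in the cortex (4 members), 103 for the average of structures and 969 for the interaction (1 member, Creb1). Wash batch 3 alone gave 6 in the accumbens, from 3 TsA arrays against 1 vehicle array that is assumed to vary like them, and the replicate block gave 1 for the average. For accumbens minus cortex, calls without each array ranged from 7509 to 9048 (members 4 to 5), from 4013 to 5891 among TsA arrays (members 2 to 4) and from 5004 to 7780 among vehicle arrays (members 2 to 3). The wash batch as a fixed block left 4199, 2633 among TsA arrays (1 member) and 2771 among vehicle arrays, and wash batch 2 alone left 4231 (2 members). With array weights 11640 passed among vehicle arrays (6 members), and Atf2 reversed to 0.282 there. The cause of these changes was not tested. Crem 1378925_at passed among TsA arrays under 8 of 24 alternatives, the replicate block among them (-0.40, adjusted p = 0.023 by limma). Whether same-numbered arrays share rats is not given. Their deviations from group means correlated at -0.114 to 0.663 (the highest for accumbens and cortex vehicle 1). Between the structures all of them were above 0, from 0.0308 to 0.663. Arrays of different numbers were not compared, so these values cannot show whether rats were shared. The numbers were not taken as pairs because the labels do not give pairs. Quantile normalization split the structure calls into 3867 higher and 4301 lower, and median centring into 3156 and 5266, against 4551 and 3798. One wash batch alone could not be run for the average TsA effect, the interaction or the structures within a treatment, since no batch held both groups. Structure was largely confounded with wash batch, since only batch 2 held both structures, and within each structure treatment was unevenly spread over the batches.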
